A study of Mus musculus with 1 sample.

Results

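The cells described here are the *Wnt4*-positive cells among the adrenal cortex cells of a single-cell RNA sequencing library of mouse adrenal medulla. They were chosen from measured values: a cell needed at least 3 unique molecular identifiers (UMIs, each 1 transcript molecule read at its 3′ end) of *Wnt4* and a UMI of at least 5 of 9 cortex genes (*Star*, *Nr5a1*, *Cyp11a1*, *Hsd3b1*, *Cyp11b1*, *Cyp21a1*, *Mc2r*, *Fdx1* and *Scarb1*). It also needed under 4 of 7 chromaffin markers, under 4 of 7 endothelial markers and under 3 of 6 cycling markers. Of 10139 cells that passed quality control, 2885 met the cortex criteria and 251 of these were *Wnt4*-positive. That is 8.70% of the cortex cells (exact 95% binomial interval 7.70 to 9.79) and 2.48% of all cells. The library was made at postnatal day 15 from 10 adrenals of 5 wild-type, untreated mice of both sexes, pooled, with 10000 viable cells loaded. The glands had been trimmed by hand to take away excess cortex, so the shares describe the cortex that was left on the medulla and not the gland. Since all cells come from 1 library, nothing could be tested between samples. Levels are UMIs of a gene summed over the cells of a group per 1000000 UMIs of that group (CPM), and all intervals are 95% and cover counting error only.

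The adrenal cortex is layered beneath a capsule. Its outermost steroid-producing layer, the zona glomerulosa, makes aldosterone under the control of angiotensin II and potassium, which act through membrane voltage and calcium. The zona fasciculata beneath it makes glucocorticoids under the control of ACTH. In young mice an inner X-zone borders the medulla. WNT4 is a secreted ligand made in the outer cortex, where β-catenin signalling is active. *Cyp11b2* encodes aldosterone synthase, the enzyme of the last steps to aldosterone, *Agtr1a* encodes an angiotensin II receptor, and *Dab2* encodes an endocytic adaptor known as a marker of the glomerulosa.

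The 251 cells held 1939013 UMIs, with a median of 6645 UMIs and 2466 genes per cell and 7.03% mitochondrial UMIs. They were compared with the 2254 cortex cells that had no *Wnt4* UMI, which had medians of 5077.5 UMIs, 2008 genes and 7.47%. Another 380 cortex cells had 1 or 2 *Wnt4* UMIs and entered neither group. Before the gates, 406 barcodes had at least 3 *Wnt4* UMIs. Of these, 13 were outside the limits on genes and mitochondrial UMIs. Among the other 393, 11 had too few cortex genes, 30 had too many chromaffin markers, 76 too many endothelial markers and 53 too many cycling markers, with 27 cells failing more than 1 of these. The 251 members had a median of 5 *Wnt4* UMIs and at most 38, and 101 of them had all 9 cortex genes.

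The threshold of 3 *Wnt4* UMIs cut through a gradient. The 69 cells just inside it, with exactly 3 UMIs, had *Dab2* at 563 CPM and *Ly6d* at 2360 CPM. The 118 cells just outside it, with 2 UMIs, had *Dab2* at 436 CPM and *Ly6d* at 1925 CPM. *Cyp11b2* was at 17.9 CPM (interval 8.19 to 34.0, 9 UMIs in 5 of the 69 cells) just inside and at 1.53 CPM (0.0386 to 8.50, 1 UMI) just outside. Further inside it was at 8.75 CPM (2.84 to 20.4, 5 UMIs) at 4 or 5 *Wnt4* UMIs and at 33.6 CPM (19.6 to 53.8, 17 UMIs) at 6 to 9.

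The label was checked against *Dab2* and *Agtr1a*, which were both higher in the *Wnt4*-positive cells, and it was kept. *Wnt4* chose the cells, and *Cyp11b2* reached the filter on low counts used below only through them, so neither was counted for the label. *Wnt4* itself (chr4:137277489-137299726 in mm10) was at 799 CPM, a value fixed by the rule. *Dab2* (chr15:6299788-6440712) was at 791 CPM (752 to 832) in the members and at 39.3 CPM (36.1 to 42.7) in cells without *Wnt4*. The members were thus 20.1-fold higher (18.2 to 22.2). In single cells *Dab2* ran from 0 through a median of 7.32 to 36.2 UMIs per 10000, and 94.4% of *Wnt4*-positive cells had a UMI against 13.4% of those without *Wnt4*. *Agtr1a* (chr13:30336441-30382867) was at 149 CPM (132 to 167) in the members, 7.67-fold higher (6.47 to 9.09) than the 19.4 CPM of the others. It was found in 58.2% against 10.0% of cells, so both genes were also present in some cells outside the group.

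*Cyp11b2* (chr15:74851010-74856318) was the rarest of the 4 markers. It had 46 UMIs in 26 of the 251 cells (10.4%, interval 6.88 to 14.8) and 1 UMI in the 2254 cells without *Wnt4*, which gives 23.7 against 0.0717 CPM, 331-fold apart with a wide interval of 56.5 to 13345. Of the 26 cells, 14 had 1 UMI, 12 had more, and the largest number was 4. Thinned to 2000 UMIs a cell, which keeps 242 of the *Wnt4*-positive cells, 8.26% had a *Cyp11b2* UMI. No UMI of it was found in 2675 chromaffin, 1935 endothelial or 477 immune cells, which allows shares of up to 0.112%, 0.155% and 0.629%. The median depths there were 3380, 2306 and 1745 UMIs, so these limits are on cells with a detected UMI and not on cells that express the gene. *Wnt4* was found in 0.34% of chromaffin, 0.62% of endothelial and 0.21% of immune cells, and *Agtr1a* in 9.31%, 0.57% and 0.42%. *Dab2* was found in 65.0% of immune cells at 618 CPM, so this gene alone does not mark the outer cortex here.

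Across all genes, 10306 had at least 50 UMIs over the cortex cells, *Wnt4* left out. With 10 CPM added to both levels, 468 of them (4.54%) were at least 2-fold higher in *Wnt4*-positive cells and 375 (3.64%) at least 2-fold lower, around a median ratio of 1.02. Since *Wnt4* chose the cells, these counts describe the selected cells and are not tests. Of the 10306 genes, 314 reached 50 UMIs only through the *Wnt4*-positive cells, and 68 of these were among the 468 higher genes. For those 68 the filter leaned on the group where they are high. Among the 9992 genes with at least 50 UMIs in the other cortex cells, 400 were higher.

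**Figure D1:**
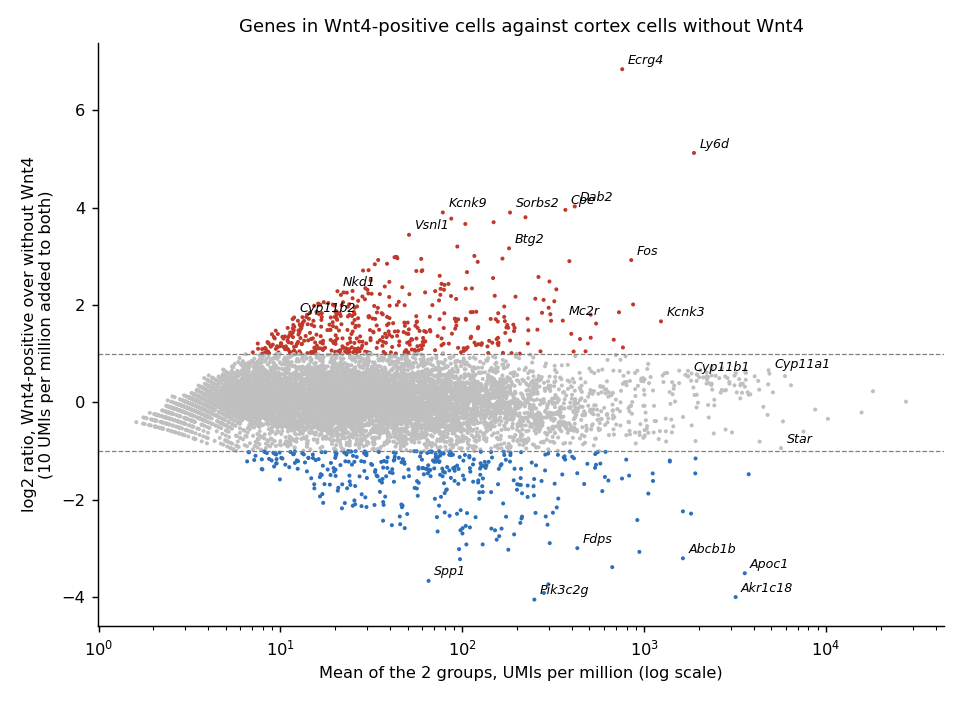
Each point is 1 of 10306 genes. The x axis is the mean level of the 2 groups in CPM (log scale) and the y axis the log2 ratio of *Wnt4*-positive cells to cortex cells without *Wnt4* after adding 10 CPM to both; red and blue mark the 468 and 375 genes past the dashed 2-fold lines, with *Ecrg4* and *Ly6d* farthest up and *Pik3c2g* and *Akr1c18* farthest down.

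*Ecrg4* (chr1:43730602-43742578), which encodes a secreted peptide precursor, had the highest ratio. It was at 1512 CPM (1457 to 1567) in the members and at 3.30 CPM (2.42 to 4.40) in the others, 458-fold apart (343 to 627), and was found in 53.8% against 0.932% of cells. In single cells it ran from 0 through a median of 0.959 to 178 UMIs per 10000, so its level differed widely among the members. *Ly6d* (chr15:74762056-74763620), a small GPI-anchored surface protein, was at 3662 against 95.6 CPM (ratio 38.3, 36.1 to 40.6) and was found in 88.4% against 7.99% of cells. *Cpe*, carboxypeptidase E of hormone processing, was at 702 against 36.0 CPM (ratio 19.5, 17.6 to 21.6) and was found in 94.8% of the members, the most widely shared of these genes.

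The other genes among the 20 highest were *Dab2*, *Kcnk9*, *Sorbs2*, *Meg3*, *Caln1*, *Ndn*, *Ptn*, *Vsnl1*, *Atf3*, *Btg2*, *Stk39*, *Ldhb*, *Pde2a*, *Eno3*, *Rian*, *Peg10* and *Rims2*. *Sorbs2*, a cytoskeletal adaptor, was found in 84.9% against 7.10% of cells. The secreted growth factor *Ptn* was at 201 against 6.67 CPM and the neuronal calcium sensor family gene *Caln1* at 171 against 3.23 CPM. In chromaffin cells *Ptn* was at 152 CPM and *Caln1* at 0.241 CPM. *Eno3* and *Ldhb*, enzymes of glycolysis and lactate metabolism, were at 83.0 against 1.79 CPM and at 84.6 against 1.94 CPM.

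At the other end, *Pik3c2g*, a class II phosphoinositide kinase gene, was 24.4-fold lower (17.8 to 34.5), at 19.6 against 479 CPM, and 28 of its 38 UMIs in the members were in 2 cells. *Akr1c18*, which encodes 20α-hydroxysteroid dehydrogenase and is a known X-zone marker, was at 367 against 6000 CPM. The 20 lowest genes also held *Emb*, *Cst8*, *Spp1*, *Apoc1*, *Nrep*, *Fetub*, *Abcb1b*, *Cyp2f2*, *Mapk13*, *Kcnk2*, *Fdps*, *Cyp51*, *Crip2*, *Ankrd55*, *Oxtr*, *Idi1*, *Cd1d1* and *Car8*. The low *Akr1c18* level was itself carried by few members. Of its 712 UMIs, 632 (88.8%) were in 8 cells with at least 10 UMIs each, and the other 243 cells had 44.1 CPM. These 8 cells had a median of 16545.5 UMIs, and Scrublet, a caller of cell doublets, marked 5 of them. Endothelial cells, which should lack the enzyme, had it at 152 CPM, and 11.3% of them had a UMI against 20.3% of *Wnt4*-positive cells. At 2000 UMIs a cell the shares were 7.90% and 9.09%. Chromaffin and immune cells had it at 75.1 and 75.5 CPM, with a UMI in 6.36% and 6.08% of cells at that depth. The part of RNA from other cells in the level of the members was not tested.

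The cells without *Wnt4* are themselves of more than 1 kind, so they were also taken apart by *Cyp11b1*, which encodes the 11β-hydroxylase of glucocorticoid synthesis. Of the 2254 cells, 718 had at least 3 *Cyp11b1* UMIs and 1400 had none. *Akr1c18* was at 424 CPM in the first and at 8513 CPM in the second. Against the 718 cells with *Cyp11b1*, 240 genes (2.33%) were at least 2-fold higher in *Wnt4*-positive cells and 122 (1.18%) at least 2-fold lower, and against the 1400 cells without it 678 and 493. This division was made after the values had been seen, and both comparisons share the *Wnt4*-positive cells. Each gene list below is therefore also counted against the *Cyp11b1* cells.

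Of 15 genes known for the outer cortex, *Wnt4* not among them, 12 passed the filter on low counts. Of these, *Lef1*, *Shh*, *Vsnl1*, *Kcnk9* and *Cyp11b2* passed only through the *Wnt4*-positive cells, where they are high. The other 7, *Dab2* and *Agtr1a* of the label among them, were at least 2-fold higher against all cells without *Wnt4*, with a median ratio of 4.40 against 1.02 over all genes. Against the *Cyp11b1* cells 4 of the 7 were higher, against 2.33% of all genes. *Agtr1b*, *Hsd3b6* and *Lgr5* did not pass. The group of angiotensin, potassium and calcium signalling held 54 genes. Of 43 that passed, 17 were higher and 2 lower, against 4.54% and 3.64% of all genes, with a median ratio of 1.44. *Kcnk9*, *Vsnl1* and *Rgs4* passed only through the members, and of the other 40 genes 14 were higher. Against the *Cyp11b1* cells 11 of the 43 were higher and none lower, beside 2.33% and 1.18% of all genes. The 43 include *Kcnk9*, *Vsnl1* and *Rgs4*, so the filter set part of this count.

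The receptors and channels of this group were led by *Kcnk9*, which encodes the TASK-3 potassium leak channel that sets the resting voltage of glomerulosa cells. It was at 155 CPM (138 to 174) in *Wnt4*-positive cells, 144-fold higher (86.1 to 261) than in cells without *Wnt4*, and at 0.728 CPM in the *Cyp11b1* cells. It was found in 32.7% of the members against 0.488% of cells without *Wnt4*, but chromaffin cells also had it, at 167 CPM. *Kcnk3*, the related TASK-1 channel, was at 1886 CPM against 588 CPM (ratio 3.21, 3.08 to 3.33) and at 1356 CPM in the *Cyp11b1* cells, so it was shared with them. The calcium channel genes *Cacna1c*, *Cacna1h* and *Cacna1d* had ratios of 10.8, 6.64 and 7.82. *Kcnma1*, the BK potassium channel, was at 110 against 15.1 CPM. No UMI of *Kcnj3*, *Kcnj5*, *Cacna1g*, *Kcne1* or *Camk2a*, also of this list, was found in the members.

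*Agtr1b*, the second angiotensin type 1 receptor gene, had 36 UMIs in the *Wnt4*-positive cells (18.6 CPM) and none in the 2254 others. Set against a floor of 3 UMIs over that group, it was at least 86.3-fold higher. It fell under the filter of 50 UMIs and is not in the counts. The calcium sensor *Vsnl1* (visinin-like 1), known to be linked to aldosterone production, was at 102 CPM against 0.287 CPM, with 4 UMIs in all cells without *Wnt4*. *Rgs4*, a damper of Gq signalling, was at 65.5 against 0.574 CPM and *Atp2b3*, a plasma membrane calcium pump, at 46.9 against 2.94 CPM. *Pde2a*, the cGMP-stimulated phosphodiesterase, was at 85.1 against 2.01 CPM. *Nr4a2*, a nuclear receptor known to act on the *Cyp11b2* promoter, was at 124 against 17.6 CPM. The calcium-dependent kinase gene *Camk2d* had a smaller ratio of 1.77. The 2 lower genes were the potassium channel *Kcnk2* (13.4 against 179 CPM) and the angiotensin receptor trafficking gene *Agtrap* (41.3 against 102 CPM).

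**Figure D2:**
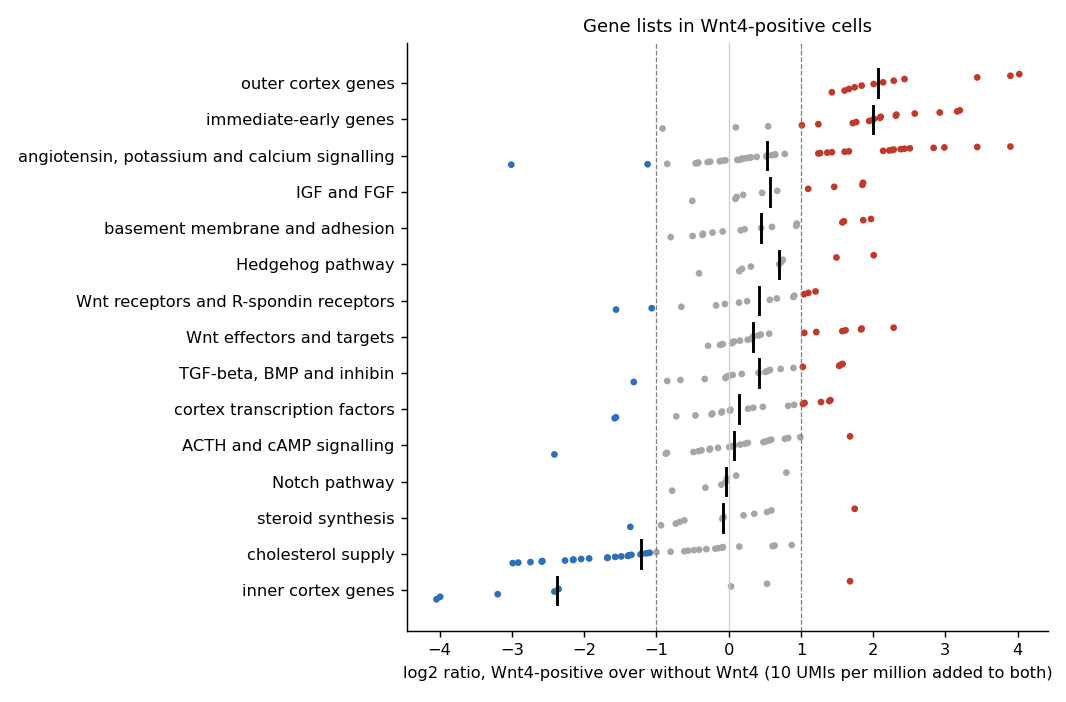
Each point is a gene of the list named on the y axis, placed by its log2 ratio of *Wnt4*-positive cells to cortex cells without *Wnt4* (x axis, 10 CPM added to both), and black bars are list medians. Red and blue points are past the dashed 2-fold lines. The median ratios of the outer cortex and immediate-early lists (4.21 and 4.01) lie to the right of 0. Those of the inner cortex and cholesterol lists (0.192 and 0.432) lie to the left, with single genes of the last 3 lists on the other side of 0. In the outer cortex list *Lef1*, *Shh*, *Vsnl1*, *Kcnk9* and *Cyp11b2* passed the filter only through the *Wnt4*-positive cells, and the median without them was 4.40. In the immediate-early list *Socs3* did.

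Besides *Wnt4*, the Wnt ligand list had 2 genes past the filter. *Wnt5a* was at 73.8 CPM against 25.8 CPM (ratio 2.86, 2.34 to 3.48) and at 59.2 CPM in the *Cyp11b1* cells. *Wls*, which carries Wnt proteins to the cell surface, was at 59.3 against 34.1 CPM. For 14 other *Wnt* genes no UMI was found in the 251 cells. Of 14 receptor and modulator genes that passed, 3 were higher and 2 lower, and 2 and 1 against the *Cyp11b1* cells (all genes 4.54%, 3.64%, 2.33% and 1.18%). *Dkk3* passed the filter only through the members. The higher ones were the receptor *Fzd3* (32.0 against 8.25 CPM) and the secreted modulators *Dkk3* (13.9 against 1.15 CPM) and *Sfrp1* (23.7 against 6.38 CPM). The lower ones were the R-spondin receptor *Lgr4* (60.9 against 199 CPM) and the receptor *Fzd4* (5.16 against 21.7 CPM). *Rspo3*, the R-spondin made by the capsule, and *Lgr5* were at 0.

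Downstream of the receptors, 7 of 22 effector and target genes were at least 2-fold higher and none lower, with a median ratio of 1.26. Of the 7, *Nkd1*, *Lef1*, *Axin2* and *Apcdd1* reached 50 UMIs only through the *Wnt4*-positive cells, and of the other 18 genes 3 were higher (all genes counted that way, 400 of 9992). *Nkd1*, a feedback inhibitor and target of the pathway, was at 40.7 CPM (32.3 to 50.8) and had 6 UMIs in all cells without *Wnt4*, which puts the members 94.7-fold higher (41.6 to 266). *Axin2*, the most used reporter gene of β-catenin signalling, was at 32.0 against 1.79 CPM, 17.8-fold higher. The transcription factor *Lef1* was at 28.4 against 0.717 CPM and its relative *Tcf7* at 43.8 against 8.10 CPM. *Ccnd1* was at 64.5 against 14.3 CPM, *Apcdd1* at 16.0 against 1.22 CPM and *Tnfrsf19* at 34.0 against 11.3 CPM. Against the *Cyp11b1* cells, where *Nkd1* was at 1.46 CPM, 4 of the 22 were higher, beside 2.33% of all genes. The 22 include the genes that passed only through the members, so the filter set part of this count. The transcript of β-catenin itself, *Ctnnb1*, was at 253 against 184 CPM, under 2-fold. Effector genes that all cells use, such as *Gsk3b* and *Apc*, had ratios of 1.27 and 1.04.

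The steroid enzymes were measured in both groups. Of 12 that passed, 10 were under 2-fold in either direction and 1 was lower, *Cyb5a* (113 against 307 CPM). The other was *Cyp11b2*, which reached the filter only through the group where it is high. Over all genes 4.54% were higher and 3.64% lower, and 1.18% were lower against the *Cyp11b1* cells. The 1 gene lower against the *Cyp11b1* cells was *Cyp11b1*, fixed by the choice of those cells, and *Cyb5a* was under 2-fold. *Cyp11a1*, the side-chain cleavage enzyme that opens steroid synthesis, was at 5873 against 3896 CPM, and *Hsd3b1* was at 7202 against 5635 CPM. *Cyp21a1* was at 4382 against 4665 CPM but at 8726 CPM in the *Cyp11b1* cells. *Star*, which brings cholesterol into mitochondria, was lower, at 3878 CPM (3791 to 3966) against 7432 CPM. *Hsd3b6*, known from the mouse glomerulosa, had 4 UMIs in each group, a ratio of 7.19 with an interval of 1.34 to 38.6. Several of these genes helped to choose the cortex cells, which sets their floor.

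*Cyp11b1* (chr15:74834125-74841643) was present in most *Wnt4*-positive cells. It was at 2065 CPM (2002 to 2130) and 70.9% of the cells had a UMI, against 1427 CPM and 37.9% in the cells without *Wnt4*. In the cells chosen for at least 3 of its UMIs it was at 4787 CPM. *Cyp11b1* and *Cyp11b2* are close copies on chromosome 15, and reads that could come from either are uncertain in such counts. Of the receptor genes for ACTH, *Mc2r* was at 549 against 165 CPM and at 532 CPM in the *Cyp11b1* cells (ratio 1.03, 0.959 to 1.11). Its accessory protein *Mrap* was at 283 CPM (260 to 308) against 1551 CPM, and at 1050 CPM in the *Cyp11b1* cells. The receptor and its accessory protein thus stood on opposite sides when set against all cells without *Wnt4*. The other 21 genes of the ACTH and cAMP list that passed were under 2-fold in either direction, and the median of all 23 was 1.05. Over all genes 4.54% were higher and 3.64% lower, so 1 of 23 each way is near the share of all genes. None of the 23 was higher and 2 were lower against the *Cyp11b1* cells, beside 2.33% and 1.18% of all genes.

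Of 8 inner cortex genes, 5 were at least 2-fold lower and 1, *Mc2r*, higher, beside 3.64% and 4.54% of all genes. With *Cyp11b1* left out, since it chose the *Cyp11b1* cells, 4 of the other 7 were lower against those cells and none higher. Over all genes these shares were 1.18% and 2.33%. *Abcb1b*, a drug efflux transporter, was at 313 against 2954 CPM and at 1158 CPM in the *Cyp11b1* cells. *Thrb*, the thyroid hormone receptor β, was at 32.0 against 205 CPM. *Akr1b7*, an aldose reductase of fasciculata cells, was at 479 against 468 CPM overall but at 1032 CPM in the *Cyp11b1* cells.

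Immediate-early genes are switched on within minutes of a stimulus and code for transcription factors and for proteins that end the signal. Of 18 that passed, 15 were at least 2-fold higher in *Wnt4*-positive cells and none lower, with a median ratio of 4.01, and 13 were higher against the *Cyp11b1* cells. Over all genes these shares were 4.54% and 2.33%. *Socs3* passed the filter only through the members. The AP-1 subunit *Fos* was 7.92-fold higher (7.51 to 8.35), at 1507 against 190 CPM, and 89.2% of cells had a UMI against 31.8%. At 2000 UMIs a cell the shares were 77.7% and 17.7%. In single cells *Fos* ran from 0 through a median of 10.4 to 78.3 UMIs per 10000 in *Wnt4*-positive cells, while the median of the other cells was 0. *Jun* was at 1399 against 340 CPM, *Egr1* at 555 against 103 CPM and the stress-response factor *Atf3* at 177 against 10.4 CPM. The phosphatase *Dusp1* was at 480 against 117 CPM, the antiproliferative gene *Btg2* at 333 against 28.3 CPM, and *Zfp36*, whose protein destabilises mRNA, at 41.8 against 5.24 CPM. *Jund*, *Ier3* and *Fosl2* were under 2-fold, with *Fosl2* at 119 against 234 CPM.

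The level of *Fos* in the other cell types was 1160 CPM in chromaffin, 595 in endothelial and 2033 in immune cells. The summed list was at 7289 CPM in *Wnt4*-positive cells, 2041 in cortex cells without *Wnt4*, 5593 in chromaffin, 6498 in endothelial and 9490 in immune cells. The cortex cells without *Wnt4* were therefore the ones that stood low. The tissue had been digested with enzymes, and the part of that step in these levels was not tested.

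The promoters of 3 of these genes are shown because they hold known response elements in the RefSeq table of start sites (GRCm38.p6). The table had 17 of the 20 immediate-early genes, and the 250 bases before each start were searched on both strands. Capitals mark TGACGTCA, the cAMP response element, in the promoters of *Dusp1* and *Btg2*, and the serum response element known as the CArG box in that of *Zfp36*. The windows are chr17:26508562-26508661 (minus strand), chr1:134079268-134079367 (minus strand) and chr7:28379232-28379331 (minus strand).
Dusp1: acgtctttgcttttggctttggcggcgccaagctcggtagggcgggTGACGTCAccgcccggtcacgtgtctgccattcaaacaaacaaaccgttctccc
Btg2: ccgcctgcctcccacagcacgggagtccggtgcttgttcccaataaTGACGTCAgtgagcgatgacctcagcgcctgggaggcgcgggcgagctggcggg
Zfp36: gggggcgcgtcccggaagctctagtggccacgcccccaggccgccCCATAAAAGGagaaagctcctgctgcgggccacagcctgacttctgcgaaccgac
The cAMP element was found in 2 of the 17 genes and in 1.77% of all 27025 genes of the table, and the CArG box in 2 of the 17, *Zfp36* and *Egr2*, and in 1.62% of all genes. No *Egr2* UMI was found in the 251 cells.

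The genes of cholesterol synthesis and uptake were lower as a group. Of 36 that passed, 21 were at least 2-fold lower and none higher, with a median ratio of 0.432, while 3.64% of all genes were lower. Most of this lay with the cells that had no *Cyp11b1*. Against the *Cyp11b1* cells 2 of the 36 were lower, where 1.18% of all genes were. Against the 1400 cells without a *Cyp11b1* UMI 23 were lower and 2 higher, beside 493 lower and 678 higher of all 10306 genes. *Fdps*, farnesyl diphosphate synthase, was at 88.2 CPM (75.5 to 102) in *Wnt4*-positive cells, 132 in the *Cyp11b1* cells and 1059 in the cells without it. *Idi1*, the isomerase that acts just before it, was at 34.0, 44.4 and 391 CPM in the same order. *Hmgcs1*, an early enzyme of the pathway, was at 115, 162 and 715 CPM. The genes that handle cholesterol esters and lipoprotein uptake were not lower. *Scarb1*, the HDL receptor, was at 535 against 348 CPM, *Soat1*, which esterifies cholesterol, at 816 against 442 CPM, and *Lipa*, the lysosomal acid lipase, at 300 against 189 CPM.

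The promoter of *Hmgcs1* (chr13:119690168-119690267, plus strand) is shown because it was the only one of 14 lower genes with an entry to hold TCACNCCAC, the sterol regulatory element, in capitals.
Hmgcs1: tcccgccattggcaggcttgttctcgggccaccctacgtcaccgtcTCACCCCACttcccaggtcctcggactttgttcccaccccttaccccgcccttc
The element was found in 2 of the 27 listed genes with an entry, *Hmgcs1* and *Stard3*, and in 1.22% of all genes. No match says only that these letters are not in this window.

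**Figure D3:**
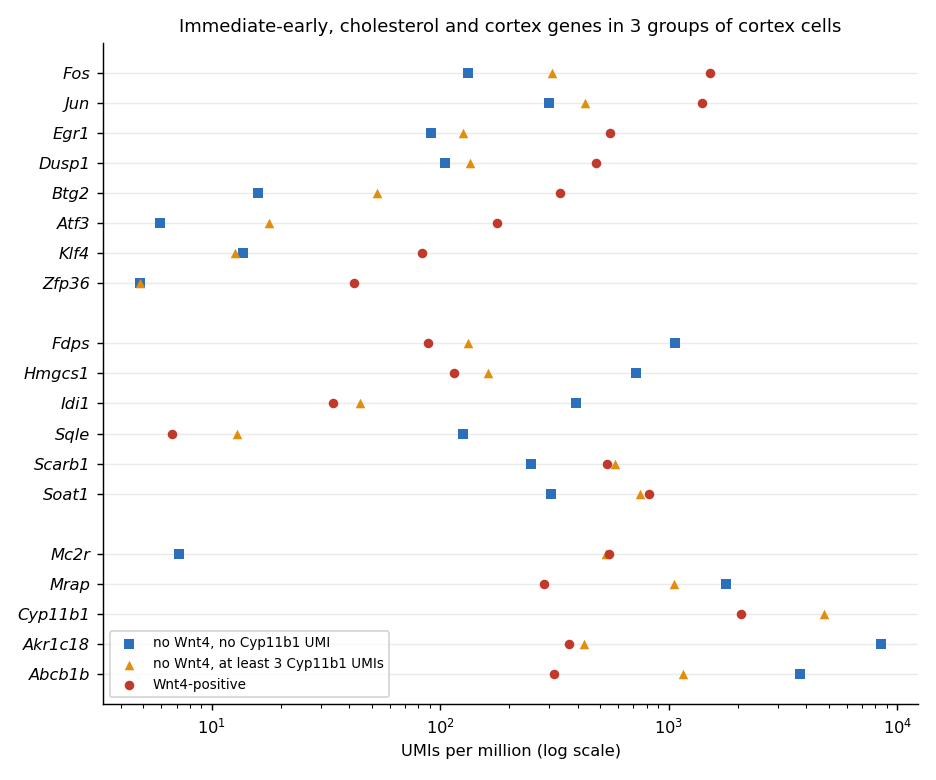
Levels of immediate-early genes (top), cholesterol genes (middle) and cortex genes (bottom) in CPM (x axis, log scale) in *Wnt4*-positive cells and in cells without *Wnt4* with at least 3 or with no *Cyp11b1* UMIs. Immediate-early genes are highest in *Wnt4*-positive cells, while for *Fdps* to *Sqle* they lie near the *Cyp11b1* cells; *Cyp11b1* is drawn for 2 groups, since it is 0 by choice in the other.

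Among other signalling genes, *Shh*, the Hedgehog ligand known to be sent from the outer cortex to the capsule, was at 32.5 CPM with 63 UMIs, against 8 UMIs in all cells without *Wnt4*, 56.6-fold higher (27.1 to 137). Of 9 Hedgehog genes that passed, *Shh* and the coreceptor *Boc* (56.2 against 13.6 CPM) were higher, and 1 was against the *Cyp11b1* cells. *Shh* passed the filter only through the members. The counts of these small lists stand beside 4.54% higher and 3.64% lower over all genes, and 2.33% and 1.18% against the *Cyp11b1* cells. The receptor and target *Ptch1* was at 38.2 against 18.7 CPM. *Fgf1* (30.4 against 1.15 CPM), *Fgf9* (69.6 against 18.9 CPM), *Fgfr4* (16.5 against 2.37 CPM) and the IGF-binding protein gene *Igfbp7* (1144 against 310 CPM) were the 4 higher of 10 IGF and FGF genes, of which *Fgf1* passed only through the members. Against the *Cyp11b1* cells, where *Igfbp7* was at 805 CPM, 1 of the 10 was higher. In the TGF-β list 4 of 19 genes were higher (*Id1*, *Id3*, *Inha* and *Fstl1*) and *Fst*, the activin antagonist follistatin, was lower, with 2 UMIs in the *Wnt4*-positive cells. None of the 19 was past 2-fold in either direction against the *Cyp11b1* cells. Of 7 Notch genes none was past 2-fold.

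The cortex transcription factor list had 5 higher and 2 lower of 20, and 2 higher and 1 lower against the *Cyp11b1* cells. The shares over all genes were 4.54%, 3.64%, 2.33% and 1.18% in that order, and they hold for the next list too. *Nr5a1*, which encodes SF1 and drives the cortical programme, was at 153 against 164 CPM. The higher ones were *Zfp36l1*, *Hoxa5*, *Nr2f1*, *Cited2* and *Nr2f2*, with ratios from 2.10 to 6.46. *Cebpb*, a bZIP factor and 1 of the lower genes, was at 46.4 against 159 CPM. Among 17 genes of basement membrane and adhesion, 4 were higher, and 2 against the *Cyp11b1* cells. These were *Itga6*, a laminin receptor subunit (193 against 45.8 CPM, and 32.8 CPM in the *Cyp11b1* cells), *Col4a1* (292 against 89.9 CPM), *Hspg2* (77.4 against 19.4 CPM) and *Col18a1* (48.0 against 4.81 CPM).

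Levels were then followed over the number of *Wnt4* UMIs in the cell, which orders the cells by a noisy count and partly by depth. The median depth was 5077.5 UMIs at 0 *Wnt4* UMIs, 5010.5 at 1, 5974 at 3 and 7523.5 at 10 or more. *Dab2* was at 39.3 CPM at 0 *Wnt4* UMIs, 297 at 1, 436 at 2, 563 at 3, 693 at 4 or 5, 858 at 6 to 9 and 1170 CPM at 10 or more. *Ecrg4* went over the same bins from 3.30 through 158, 293, 577, 777 and 1905 to 3429 CPM. *Agtr1a* was already at 79.8 CPM at 1 *Wnt4* UMI and reached 172 CPM. *Cyp11b1* stood highest at 1 *Wnt4* UMI, at 4216 CPM, and was at 2934 CPM at 3, 1562 CPM at 6 to 9 and 1092 CPM at 10 or more. *Star* went from 7432 to 3001 CPM. *Akr1c18* was at 6000 CPM at 0 and at 454 CPM at 1, and *Fos* was at 849 CPM at 1 and 1455 CPM at 3. Cells with 1 *Wnt4* UMI thus differed in level from cells with none in most of these genes.

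**Figure D4:**
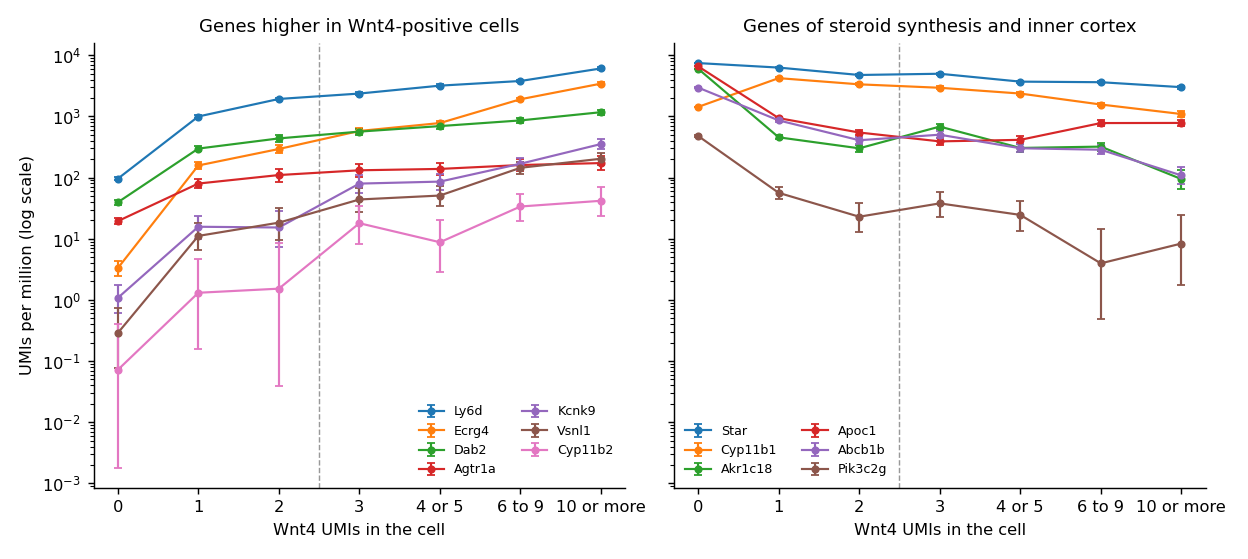
Levels in CPM (y axis, log scale) of genes higher in *Wnt4*-positive cells (left) and of steroid and inner cortex genes (right) by the number of *Wnt4* UMIs in the cell (x axis), with exact 95% Poisson intervals; cells right of the dashed line are the *Wnt4*-positive ones. *Ecrg4* reaches 3429 at 10 or more *Wnt4* UMIs, and *Cyp11b1* peaks at 4216 at 1.

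The *Wnt4*-positive cells were not uniform. At 2000 UMIs a cell, 1568 genes had a mean of at least 0.2 UMIs, with a median ratio of variance to mean of 1.04. The 15 genes with the largest ratio were *Hbb-bs*, *Hba-a1*, *Malat1*, *Ecrg4*, *Akr1c18*, *Apoc1*, *Ly6d*, *Apoe*, *mt-Co1*, *Cyp11a1*, *Fos*, *mt-Co3*, *Cyp11b1*, *Hsd3b1* and *Cyp2f2*. The haemoglobin genes stood at 52.6 and 36.0, from few cells, since 770 of the 828 *Hbb-bs* UMIs were in 4 cells. *Ecrg4* was at 14.5, and *Cyp11b1* at 3.71.

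Over the 242 cells, which share 1 library and the same depth, the log counts of *Ecrg4* went with those of *Vsnl1* (Pearson's r = 0.66), *Kcnk9* (0.66), *Tmsb4x* (0.63), *Eno3* (0.58) and *Cpe* (0.57). They ran against those of *Cyp11b1* (−0.72), *Hsd3b1* (−0.72), *Adh1* (−0.69) and *Cyp11a1* (−0.60). These are the genes most like and least like *Ecrg4* among the 1568. Counts drawn to a fixed total oppose each other in part by construction.

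The 26 cells with *Cyp11b2* lay at one end of this pattern. All 26 had *Ecrg4*, at 6245 CPM (5871 to 6637) against 1068 CPM (1021 to 1117) in the other 225, and 24 had *Vsnl1*, at 602 against 54.7 CPM. *Kcnk9* was at 753 against 99.3 CPM and *Dab2* at 1470 against 728 CPM. *Cyp11b1* was found in 3 of the 26, at 30.1 CPM (9.78 to 70.3), and in 175 of the 225, at 2256 CPM (2187 to 2327). The median depths were 5088.5 and 6801 UMIs. *Agtr1a* was at 175 CPM (117 to 251) and 146 CPM (129 to 165), with intervals that overlap. *Star* was at 3915 and 3874 CPM, while *Hsd3b1* was at 2782 against 7615 CPM.

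Divided by *Ecrg4*, a choice made after the values had been seen, 116 cells had none, 61 had 1 to 9 UMIs and 74 had at least 10. *Cyp11b1* was at 2977, 1933 and 183 CPM in this order. *Cyp11b2* was at 0, 5.87 and 97.4 CPM, and *Agtr1b* at 2.02, 7.82 and 67.9 CPM. The Wnt targets *Nkd1*, *Lef1* and *Axin2* were at 12.2, 9.13 and 20.3 CPM without *Ecrg4* and at 122, 77.0 and 52.1 CPM with at least 10 UMIs. *Mc2r* was at 609 CPM (561 to 659), 545 CPM (483 to 613) and 421 CPM (363 to 486), lower where *Ecrg4* was high. *Kcnk3* differed less, at 1897, 1976 and 1758 CPM. The median depths were 7668.5, 7617 and 5328.5 UMIs, and the cells with most *Ecrg4* had a median of 7 of the 9 cortex genes against 9 in those without. *Cyp11b1* is 1 of those 9.

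**Figure D5:**
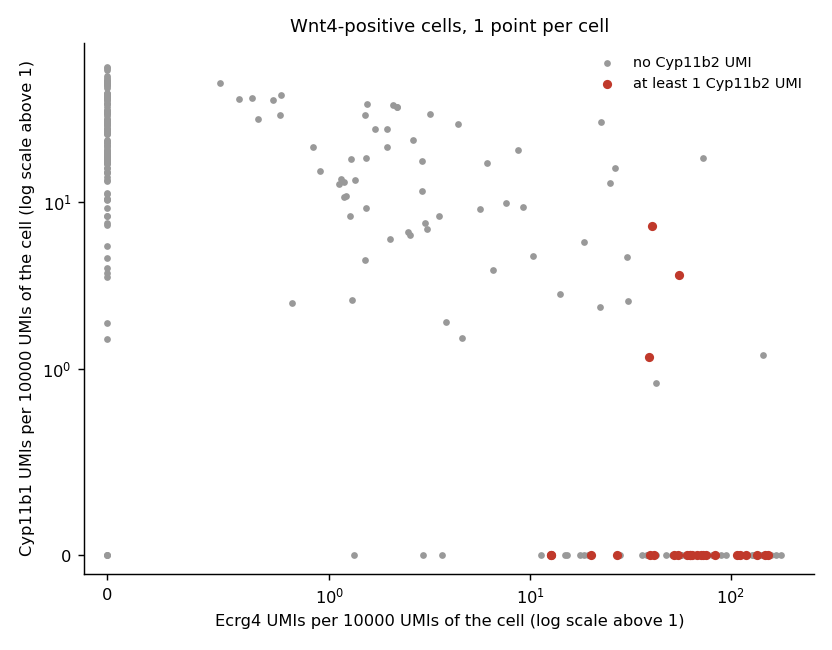
Each point is 1 of the 251 *Wnt4*-positive cells, by its *Ecrg4* (x axis) and *Cyp11b1* UMIs (y axis) per 10000 UMIs, on scales that are linear up to 1 and logarithmic above. The 26 cells with a *Cyp11b2* UMI, in red, all have *Ecrg4*, and 3 of them have *Cyp11b1*.

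Markers of other cell types were low in the members and are given as whole lists. The 7 chromaffin markers, which the gate limited, summed to 71.2 CPM in *Wnt4*-positive cells, 161 in cells without *Wnt4* and 70388 in chromaffin cells, with *Chgb* the most abundant. The 7 endothelial markers summed to 34.6, 31.8 and 6891 CPM in *Wnt4*-positive, other cortex and endothelial cells, with *Kdr* the most abundant. The 7 immune markers, not used in the gate, summed to 44.4 and 87.4 CPM against 19655 CPM in immune cells, with *C1qa* the most abundant and *Ptprc* at 0. The 8 capsule and fibroblast markers summed to 25.8 against 9.54 CPM, with *Dcn* the most abundant and *Pdgfra*, *Rspo3* and *Lum* at 0. The 5 mural markers summed to 4.64 against 2.01 CPM, with *Tagln* the most abundant and *Myh11* and *Acta2* at 0. Of 6 sustentacular markers 5 were at 0, with 1 UMI of *Fabp7*.

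The sexes were not equally spread. Of *Wnt4*-positive cells with a UMI of either *Xist* or a Y-linked gene but not both, 97 had *Xist* and 114 a Y-linked gene, so 46.0% (39.1 to 52.9) carried *Xist*. In the cells without *Wnt4* it was 438 against 1133, which is 27.9% (25.7 to 30.2), and in the 718 *Cyp11b1* cells 32.9% (28.8 to 37.1). At 2000 UMIs the shares were 65.3% and 34.6%. How many of the 5 mice were of each sex is not given in the sources used here, and mice and sex cannot be told apart. The main ratios were on the same side in both. *Dab2* had a ratio of 11.7 among *Xist* cells and 29.5 among cells with Y-linked UMIs, *Ly6d* 36.8 and 59.8, *Fos* 5.82 and 10.3, *Mc2r* 2.88 and 3.80, *Akr1c18* 0.0209 and 0.0245, and *Fdps* 0.0943 and 0.108.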

How the data were processed

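The data are 1 library of dissociated adrenal medulla made with the 10x Genomics 3′ kit. The submitters' processing notes name Cell Ranger 4.0.0 and mm10, and the authors deposited integer UMI counts per gene and barcode without normalization (32285 genes, 11214 barcodes, 51421499 UMIs in all).

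As in the study's methods, cells with 500 to 5000 genes and at most 20% mitochondrial UMIs were kept, 10139 in all with a median of 3567 UMIs. Doublets were not removed in the main analysis. Scrublet in scanpy 1.11.5 at an expected rate of 8% called 669 cells (6.60%), among them 12 of the 251 *Wnt4*-positive cells, and their removal was an alternative. Chromaffin, endothelial and immune cells were those with at least 4 of 7 markers of their type and under 5 cortex genes. Ratios between levels are given without a pseudocount, with exact conditional intervals. Calls and medians of ratios over lists used 10 CPM added to both levels, a 2-fold limit and at least 50 UMIs over all cortex cells. Medians of lists and all genes use the same scale. Shares of cells have Clopper-Pearson intervals, and a count of 0 was given a limit of 3 counts. For shares at equal depth each cell was drawn down to 2000 UMIs. Genes were named from lists, from the 20 highest and 20 lowest ratios and from the 15 largest ratios of variance to mean within the members, and a few more were singled out after their values had been seen. The members and lists were chosen with earlier results of these data known. Gene positions are those of GENCODE M21, and promoter sequences are from RefSeq, both on GRCm38 (mm10). The code was tested on simulated data. Python 3.11.15, numpy 2.4.6, scipy 1.17.1, pandas 2.3.3 and matplotlib 3.10.9 were used. Alternatives changed the *Wnt4* threshold, pseudocount, count filter, scaling, depth, quality limits, gates, doublets and sex of the cells. A few members of the lists are counted but not reported by name here.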

Additional observations from a re-analysis of the deposited data

How the results depend on the processing

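No paired analysis was possible because there is 1 library. The counts of 468 higher and 375 lower genes stayed within 1.5 times under all but 3 of 18 planned settings. With a pseudocount of 1 CPM they were 993 and 831, with one of 50 CPM 120 and 135, and with at least 200 UMIs a gene 297 genes were higher (371 lower), so that 44.5% of calls were higher in place of 55.5%. At a thinned depth of 2000 UMIs 376 were higher and 473 lower, a share of 44.3%. Of 4 settings added after the data had been seen, the comparison with cells of at least 3 *Cyp11b1* UMIs gave 240 and 122 (66.3% higher). In that setting the log2 ratios of 6 of 134 genes followed, lower in the main comparison, turned positive: 0.44 for *Ankrd55*, 0.076 for *Mvd*, 0.44 for *Fdft1*, 0.32 for *Nsdhl*, 0.016 for *Insig1* and 0.055 for *Apoe*. The cause was not tested beyond the choice of cells. No other setting turned a called ratio of these genes. The share of cortex cells that were *Wnt4*-positive, 8.70%, was 12.8% at 2 or more *Wnt4* UMIs, 4.61% at 5 or more, 10.9% under narrower limits on genes and mitochondrial UMIs, and 14.6% among cells with *Xist*. The share of *Wnt4*-positive cells with *Cyp11b2*, 10.4%, was 6.19% (2.30 to 13.0) among cells with *Xist* and between 7.32% and 14.3% elsewhere. Depth limits the rare genes: *Cyp11b2*, *Agtr1b* and *Hsd3b6* rest on 46, 36 and 4 UMIs, and without replicates no spread between mice is known.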

Other observations

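The genes with the highest ratios held several imprinted genes, expressed from 1 parental copy and known for growth control before and after birth. From a list of 27 imprinted genes written after the values had been seen, 19 passed the filter and 9 were at least 2-fold higher in *Wnt4*-positive cells, none lower, with a median ratio of 1.84 against 1.02 over all genes, of which 4.54% were higher. *Mest* passed only through these cells. Against the *Cyp11b1* cells 8 were higher and none lower, where 2.33% of all genes were higher. *Meg3* was at 424 CPM (395 to 454) against 21.2 CPM, and its neighbour *Rian* on chromosome 12 at 85.6 against 2.30 CPM. *Ndn* was at 285 against 12.7 CPM, *Peg10* at 302 against 30.3 CPM and *Mest* at 43.3 against 1.15 CPM. *Grb10*, *Kcnq1ot1*, *Zdbf2* and *Rasgrf1* were the other 4. *Cdkn1c*, a cell cycle inhibitor, was at 963 against 520 CPM, but at 1696 CPM in the *Cyp11b1* cells, and it ran against *Ecrg4* within the members. No UMI of *Igf2* or *H19* was found in the 251 cells. Chromaffin cells had *Meg3* at 4135 CPM, *Ndn* at 375 CPM and *Rian* at 326 CPM, while *Peg10* was at 19.7 CPM there. The chromaffin markers, which the choice of the cells limited, summed to 71.2 CPM in the members, and the part of chromaffin RNA in these levels was not tested.

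Within 500000 bases of *Cyp11b2* on chromosome 15, 11 genes, *Cyp11b2* included, passed the filter. Of these, 4 were at least 2-fold higher and none lower, beside 4.54% and 3.64% of all genes. *Cyp11b2* itself passed only through the *Wnt4*-positive cells. The 4 higher genes were *Lynx1* (136 against 14.1 CPM), *Ly6d*, *Cyp11b2* and *Ly6e* (268 against 72.2 CPM). *Ly6k*, *Ly6m* and *Ly6a* between and beside them had ratios of 1.28, 1.02 and 1.03 with 10 CPM added. This window was chosen after the values had been seen.

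Of the 39 cells after quality control that had a *Cyp11b2* UMI, 26 were *Wnt4*-positive, 3 had 1 or 2 *Wnt4* UMIs, 1 had none, and 9 were outside the cortex criteria. The haemoglobin and other red cell genes, 5 in all, summed to 782 CPM in *Wnt4*-positive cells and 2142 in cells without *Wnt4*, against 4165 CPM in immune cells.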
